A study of Hydra viridissima with 4 samples.

Results

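Open chromatin within 250 kb of the ends of the large genome scaffolds was described in the green hydra Hydra viridissima, a small freshwater polyp that carries unicellular algae inside the epithelial cells lining its gut. A union region is a stretch made by merging all peaks of the 4 deposited lists that share at least 1 bp. On the 14 scaffolds with at least 1000 union regions, a region belonged to an end when it started below 250 kb or ended within 250 kb of the highest peak end on it. The 28 ends held 1103 of the 117973 union regions of the series, and the inner part of the same scaffolds held 116114. On these scaffolds end regions were chosen by position, not by their strength, their width or the number of libraries with a call. Calls still entered through the count of 1000 regions and through the highest peak end. Of the 14 regions at the highest peak ends, 8 were called in 1 library.

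Accessibility was measured by ATAC-seq, an assay whose transposase, Tn5, inserts sequencing adapters into DNA that is not packed in nucleosomes. The groups were symbiotic (green, with algae) and aposymbiotic (without algae) animals of clone 2, with 2 biological replicates each. Each library came from 50 large whole animals without buds or gonads, kept at 24 °C with antibiotics and last fed 2 days before. The animals of a library were pooled, all belong to 1 clone, and every cell type of the body contributes, so a region open in more cells and a region opened further in the same cells cannot be told apart.

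The ends of linear chromosomes carry telomere repeats, and next to them lies subtelomeric DNA, which in many animals is rich in repeats, poor in genes and packed into compact chromatin. Open chromatin outside such stretches marks mainly promoters and enhancers, where transcription factors and the transcription machinery displace nucleosomes. No source used here says whether a scaffold end is the end of a chromosome, and the base sequence and genes of these ends were not analysed here. The low-coordinate end was counted from position 1, but the high-coordinate end had to be counted from the last peak, so that a region lies at the very edge of each high end by construction.

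The lists held 31072 and 87128 peaks in symbiotic replicates 1 and 2, and 21481 and 78594 peaks in aposymbiotic replicates 1 and 2. The genome-wide background pileup, which rises with depth, was 6.80 and 13.5 tags in the symbiotic libraries and 9.39 and 16.7 tags in the aposymbiotic libraries. Replicate 2 lists were longer and had a higher background than replicate 1 lists in both conditions. Peak names carry date-like tags. Read as month and day, they set the libraries of a replicate number 1 day apart with the symbiotic one later each time, so that day and condition cannot be told apart.

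Scaffold ends were poor in called regions in every library. The lists hold calls only, so closed chromatin and stretches where reads could not be placed look alike in them. Union regions numbered 158 per Mb at the ends and 435 per Mb in the inner part, a density 2.76-fold lower at the ends. The ends made up 2.56% of the length of these scaffolds and 0.941% of their regions. Merged regions covered 33.9 kb per Mb at the ends and 97.5 kb per Mb in the inner part.

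Each library gave this order on its own. Symbiotic replicate 1 had 302 peaks at the ends, or 43.1 per Mb, against 114 per Mb in its inner part, a density 2.65-fold lower. In symbiotic replicate 2 there were 796 end peaks, or 114 per Mb, against 321 per Mb inside, 2.83-fold lower. All 4 lists were thus sparser at the ends, whatever their length. Aposymbiotic replicate 1 had 172 end peaks, 24.6 per Mb against 79.2 per Mb inside, 3.22-fold lower. Aposymbiotic replicate 2 had 647, 92.4 per Mb against 291 per Mb inside, 3.15-fold lower. The mean log2 ratio of end to inner density was -1.56 ± 0.13 (SD, n = 4), with 4 of 4 libraries below 0 (two-sided exact sign-flip permutation p = 0.13, the smallest that 4 libraries allow).

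**Figure D1:**
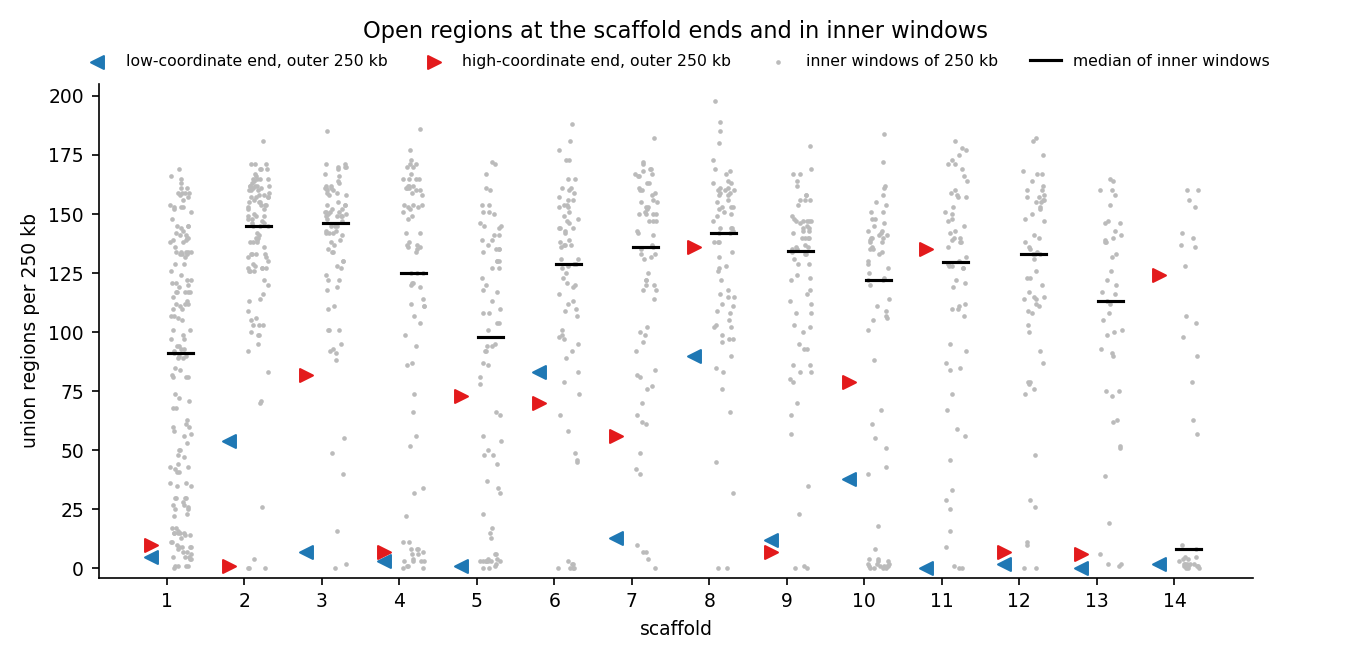
Union regions per 250 kb (vertical axis) for each of the 14 large scaffolds (horizontal axis). Triangles are the low- and high-coordinate ends, grey points are inner windows of 250 kb and black bars their medians. Of the 28 ends, 16 hold 13 regions or fewer and 12 hold 38 or more, and 26 lie below the median of their own scaffold.

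The shortage was uneven, and the ends fell into 2 kinds with a gap between them. Of the 28 ends, 16 held between 0 and 13 regions, with a median of 5.5, and the other 12 held between 38 and 136, with a median of 80.5. The first kind is called sparse and the second populated, a split at 20 regions made after the counts were seen, so it carries no test. Sparse ends held 83 regions in 4 Mb, or 20.8 per Mb, a density 20.96-fold below the inner part, and populated ends held 1020 regions in 3 Mb, or 340 per Mb, 1.28-fold below it. Nearly all end regions, 92.5%, thus came from 12 ends.

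Sparse stretches were not limited to ends. Among 1061 inner windows of 250 kb, 142 held fewer than 20 regions (13.4%), against 16 of 28 ends. Only 48 of these 1061 windows held 14 to 37 regions, the range in which no end lay. Counts in this gap were thus rare inside as well. The inner windows had a median of 127 regions and quartiles of 79 and 151, and the ends a median of 11. Only 2 ends lay above the inner median of all scaffolds.

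The same ends were low in each of the 4 libraries. With an end counted as low when its peak density was under 25% of the inner density of the same list, a limit also set after the counts were seen, 16 ends were low in each of the 4 lists. These were the same 16 ends in all 4 libraries, and all 16 are the sparse ends. The sparse class was taken from the union of these same lists, so the overlap was partly fixed in advance. The highest sparse end reached 17.5% and 11.2% of the inner density in symbiotic replicates 1 and 2, and 20.2% and 12.4% in aposymbiotic replicates 1 and 2. The lowest populated end stood at 28% and 37.3% in the symbiotic and at 30.3% and 37.1% in the aposymbiotic libraries. In peaks, these 2 ends held 5 and 8 in symbiotic replicate 1, and 4 and 6 in aposymbiotic replicate 1. A few peaks thus set the margin in the short lists. In symbiotic and aposymbiotic replicates 2 the counts were 9 and 30, and 9 and 27. Counted on union regions, ends under 25% of the inner density numbered 16 at 250 kb, 20 at 100 kb, 10 at 500 kb and 6 at 1000 kb. The single lists were not counted at the other distances.

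Scaffolds differed in whether both of their ends were sparse. Both ends were sparse on 5 scaffolds (1, 4, 9, 12 and 13), 1 end on 6 scaffolds (2, 3, 5, 7, 11 and 14) and neither on 3 scaffolds (6, 8 and 10). Among the 6 with 1 sparse end, it was the low-coordinate end on 5 and the high-coordinate end on scaffold 2. Low ends held 310 regions in all, with a median of 6 and 10 sparse ends, and high ends held 793, with a median of 63 and 6 sparse ends. Since high ends are counted from the last peak, any stretch without peaks beyond it is left out there and not at low ends, so the 2 sides are not measured alike. With low ends counted from their first peak, 15 of the 28 ends in place of 16 had under 25% of the inner density of union regions. Counted as a pair, the 2 ends were below the inner density of their own scaffold on 13 of 14 scaffolds. The exception was scaffold 14, whose ends reached 111% of an inner density of 228 regions per Mb.

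The ends with the most regions were the high end of scaffold 8, with 136, the high end of scaffold 11, with 135, and the high end of scaffold 14, with 124. At the high end of scaffold 8 there were 37 and 96 peaks in symbiotic replicates 1 and 2, and 19 and 87 peaks in aposymbiotic replicates 1 and 2. The high end of scaffold 11 had 34 and 96 peaks in the symbiotic and 24 and 73 in the aposymbiotic libraries. In each replicate the symbiotic list had more peaks at these 2 ends, as it had in the inner part, where it held 1.44 and 1.10 times as many in replicates 1 and 2. The low ends of scaffolds 11 and 13 held no region, and a single region lay at the low end of scaffold 5 and at the high end of scaffold 2.

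Scaffold 2 ended in the longest stretch without a region that touched an end, 1238 kb at 25104993 to 26343467. Beyond it lay 1 region, at 26343468 to 26343726, called in symbiotic replicates 1 and 2 and in aposymbiotic replicate 1, with a fold enrichment of up to 8.65. Fold enrichment is the pileup at the summit of a peak over the background that the caller estimated, as the authors deposited it. The longest stretch that lay wholly in the inner part measured 935 kb. Stretches longer than 100 kb touched 16 of the 28 ends, and there were 18 of them, or 2.57 per Mb of end, against 125, or 0.468 per Mb, inside. A stretch that runs into the inner part is counted whole here, which favours the ends.

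**Figure D2:**
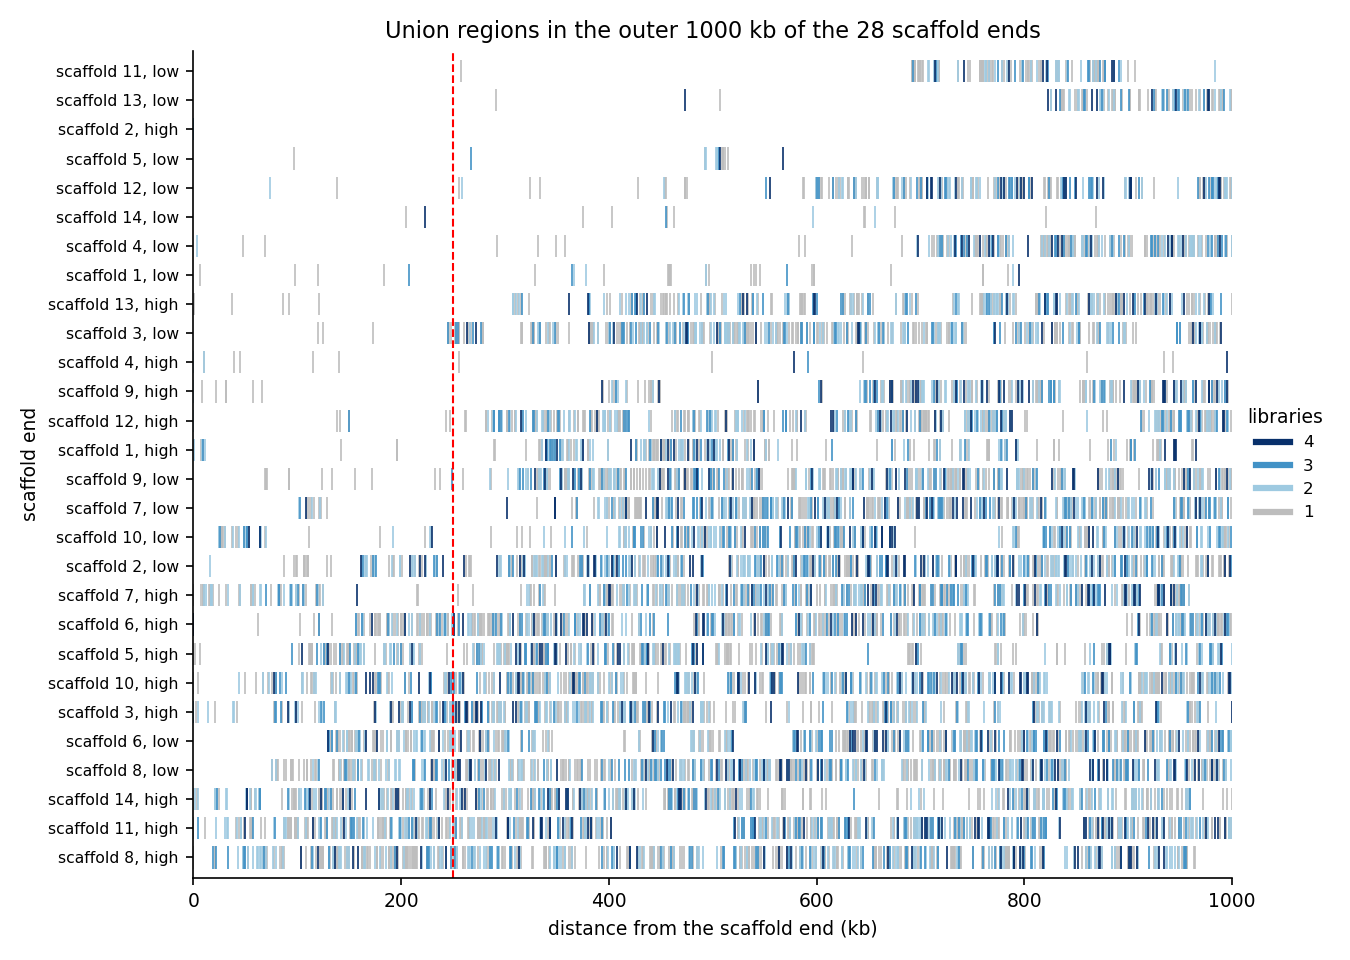
Every union region in the outer 1000 kb of the 28 ends, ordered from the end with the fewest regions (top) to the one with the most. The horizontal axis is the distance from the end in kb, the shade gives the number of libraries with a peak, and the dashed red line marks 250 kb. The high end of scaffold 2 stays almost empty for the whole 1000 kb, whereas the high end of scaffold 8 is filled throughout.

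Density was lowest in the outer 50 kb, climbed further inward and did not jump at 250 kb. It was 95.7 regions per Mb in the outer 25 kb and 77.1 per Mb from 25 to 50 kb, where 54 regions lay. From 50 to 100 kb it was 115 per Mb, from 100 to 150 kb 186, and from 200 to 250 kb 214. The next band, 250 to 500 kb, held 308 regions per Mb, or 70.8% of the inner density, and 500 to 1000 kb held 379. From 1000 to 2000 kb the density was 427 per Mb, or 98.1% of the inner density, and from 2000 to 3000 kb it was 109%. The last 25 kb inside the limit held 148 regions and the first 25 kb outside it 161, with median widths of 163 and 170 bp.

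Both kinds of end took part in this climb, but not every end did. At sparse ends the next 250 kb held a median of 12 regions (range 0 to 147), and 9 of the 16 held fewer than 20 there too. At populated ends the next 250 kb held a median of 129.5 regions (range 61 to 172). The count fell from 136 to 127 at the high end of scaffold 8, from 135 to 96 at the high end of scaffold 11 and from 83 to 79 at the low end of scaffold 6. It also fell at the high ends of scaffolds 4 (7 to 2) and 2 (1 to 0), and rose at all other ends. Sparse ends were picked for low counts in the outer 250 kb, so a higher count next to them is partly built in. The hundredth region lay at a median distance of 793 kb from a sparse and 284 kb from a populated end. On the low end of scaffold 14 it lay at 4943 kb.

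**Figure D3:**
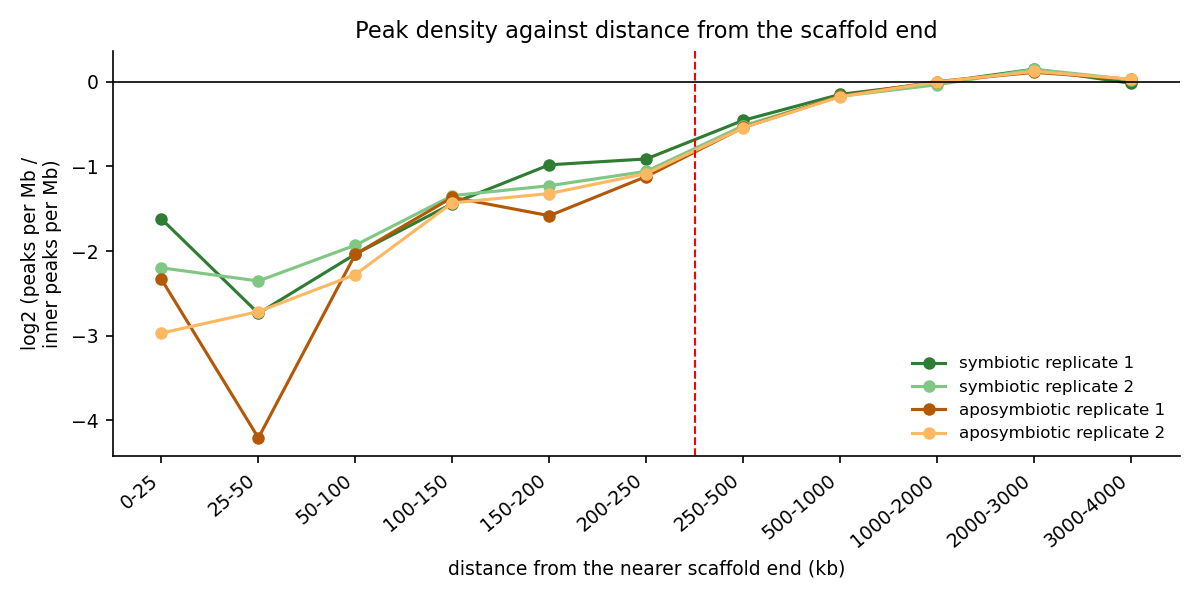
Peaks per Mb over the inner density of the same list (log2, vertical axis) in bands of distance from the nearer scaffold end (kb, horizontal axis), one line per library. Values lie below 0 in all 4 libraries out to 1000 kb and the dashed red line marks 250 kb. The dip of aposymbiotic replicate 1 at 25 to 50 kb rests on 3 peaks.

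At the low ends, where the start of the scaffold is known, the outermost region began between 3.75 and 292 kb from it, with a median of 86.2 kb. Of the 28 outermost regions, 16 were called in a single library and 1 in all 4. Symbiotic replicate 2 had called 22 of them and symbiotic replicate 1 had called 9, against 7 each in aposymbiotic replicates 1 and 2. Over all union regions, symbiotic replicates 2 and 1 called 71.9% and 24.9%, and aposymbiotic replicates 1 and 2 called 17.5% and 63.5%. Aposymbiotic replicate 2 thus held 7 of 28 where it held 63.5% of regions in general. Its share was also lower in other sparse stretches. It called 25.3% of all regions at sparse ends and 41.6% in sparse inner windows, against 58.0% at populated ends. A low share in this list was therefore not limited to the outermost regions. The region closest to a scaffold start was on scaffold 4 at 3753 to 4166. Both symbiotic lists held it and neither aposymbiotic list did, with a fold of up to 2.82.

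End regions were called in all 4 libraries less often than inner regions. Of the 1103 end regions, 62 were called in all 4 libraries, or 5.62% (95% exact Clopper-Pearson interval 4.34 to 7.15), against 8.71% in the inner part and 8.69% of all union regions. Calls in a single library made up 54.9% of end regions (interval 51.9 to 57.9), 52.0% of inner regions and 52.1% of all. The intervals here and below cover counting error only. The share in all 4 libraries was 1.49% of the 67 regions in the outer 25 kb and 1.85% of the 54 from 25 to 50 kb. It was 4.35% of 161 from 50 to 100 kb, 7.36% of 299 from 200 to 250 kb and 8.59% from 500 to 1000 kb. The first bands thus rest on very few regions called in all 4. The outer 25 kb also includes the 14 regions that define the high ends, 8 of them called in 1 library. Such a share is 1 value over all libraries, so it has no test across them, and its difference from the inner part was -5.50 percentage points with ends of 100 kb and -0.750 with ends of 1000 kb.

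Calls in 1 library made up a larger share at sparse than at populated ends. Of their 83 regions, 62 were called in 1 library, or 74.7% (interval 64.0 to 83.6), and 2 in all 4. Populated ends had 544 of 1020 in 1 library, or 53.3% (interval 50.2 to 56.4), and 60 in all 4. The 142 sparse inner windows held 700 regions, of which 67.9% were called in 1 library and 66 regions, or 9.43%, in all 4.

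**Figure D4:**
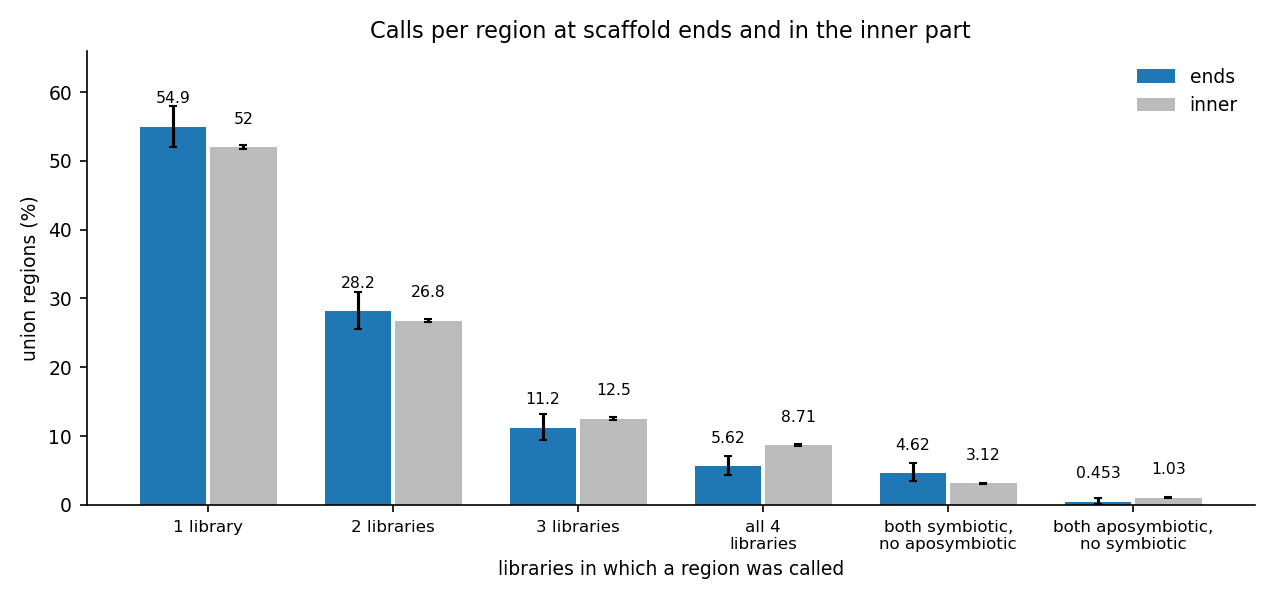
Share of union regions (%, vertical axis) called in 1, 2, 3 or all 4 libraries, and in both libraries of 1 condition and neither of the other, at ends (blue) and in the inner part (grey). Bars start at 0 and error lines are 95% exact intervals. Regions called in all 4 libraries are 5.62% at ends and 8.71% inside.

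Pooled over all ends, most of them from populated ends, end peaks were about as strong as inner peaks. Median fold enrichment at ends and inside was 2.88 and 2.93 in symbiotic replicate 1, and 2.47 and 2.497 in symbiotic replicate 2. It was 2.64 and 2.62 in aposymbiotic replicate 1, and 2.20 and 2.21 in aposymbiotic replicate 2. The mean log2 ratio, -0.01 ± 0.02 (SD, n = 4), was within the spread of libraries (two-sided exact sign-flip permutation p = 0.375). Peaks at ends were slightly narrower, with medians of 133.5, 158, 148 and 142 bp in symbiotic replicates 1 and 2 and aposymbiotic replicates 1 and 2, against 137, 164, 158 and 149 bp inside. All 4 libraries had this direction (mean log2 ratio -0.06 ± 0.02, SD, n = 4; exact sign-flip permutation p = 0.13, the smallest possible), but with ends of 500 kb the ratio was -0.02 and with ends of 1000 kb it reversed to 0.01. The highest fold of each list lay inside. A maximum rises with the number of peaks, so this does not show that ends lack very strong peaks. The highest fold at ends was 9.87 and 9.41 in symbiotic replicates 1 and 2 and 8.74 and 8.31 in aposymbiotic replicates 1 and 2, against 29.7, 22.97, 23.9 and 21.8 inside, where far more peaks were drawn from.

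The caller divides by the higher of the genome-wide and a local background, so a local background above the genome-wide value shows that the surroundings of a peak also gathered tags. This was less common at the ends. It held for 55.3% of end peaks and 64.5% of inner peaks in symbiotic replicate 1, and for 56.4% and 68.3% in symbiotic replicate 2. In aposymbiotic replicate 1 it held for 49.4% and 59.6%, and in aposymbiotic replicate 2 for 59.8% and 67.2%. The mean difference was -9.65 ± 1.86 percentage points (SD, n = 4), below 0 in 4 of 4 libraries (two-sided exact sign-flip permutation p = 0.13, the smallest possible). At sparse ends the shares were 15%, 6.67%, 18.75% and 21.7% in symbiotic replicates 1 and 2 and aposymbiotic replicates 1 and 2, over 20, 60, 16 and 23 peaks, and at populated ends 58.2%, 60.5%, 52.6% and 61.2%. Sparse inner windows had shares of 6.45% and 10.2% in symbiotic and 6.43% and 10.8% in aposymbiotic replicates 1 and 2. Local background thus moved with region density, and its part in the lower density was not tested.

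Spacing is not separate evidence for the split, since fewer regions in the same length leave wider gaps. The median gap between neighbouring regions was 800.5 bp at populated ends, 6753 bp at sparse ends and 783 bp inside. Gaps under 500 bp made up 39.0% at populated ends, 17.4% at sparse ends and 37.8% inside.

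**Figure D5:**
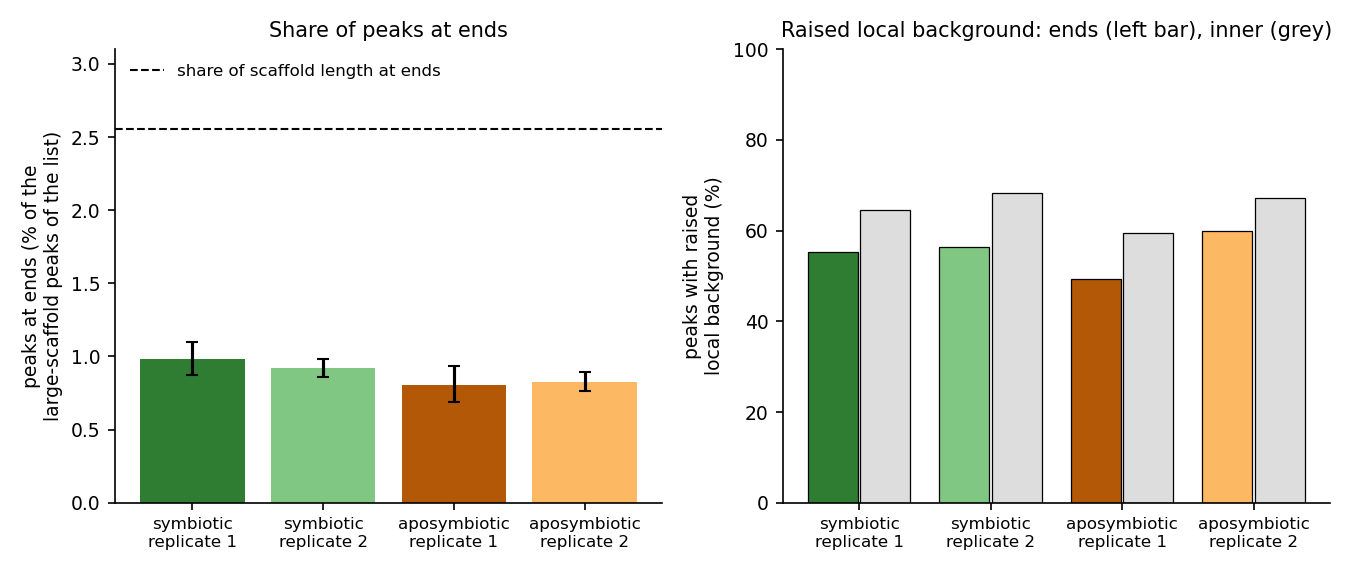
Left, peaks at ends as a share of the large-scaffold peaks of each list (%), with 95% exact intervals and the share of length as a dashed line at 2.56%. Right, peaks with a raised local background (%) at ends (coloured bars) and in the inner part (grey bars). End shares lie below the length share and below the inner bars in all 4 libraries.

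A larger share of peaks lay at the ends in symbiotic than in aposymbiotic lists. The share was 0.980% (interval 0.873 to 1.10) and 0.919% (0.857 to 0.985) in symbiotic replicates 1 and 2, against 0.807% (0.691 to 0.937) and 0.826% (0.764 to 0.892) in aposymbiotic replicates 1 and 2. Both symbiotic values lay above both aposymbiotic values. The log2 ratio of end to inner density averaged -1.45 ± 0.07 in symbiotic and -1.67 ± 0.02 in aposymbiotic libraries (SD, n = 2 each), a difference of 0.22 (two-sided exact permutation p = 0.33, the smallest that 2 libraries against 2 allow). It was 0.41 with ends of 100 kb, 0.11 at 500 kb and 0.05 at 1000 kb, and 0.37 when peaks had to reach a -log10 q of 5.

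End by end, symbiotic lists had the higher number of peaks at 15 ends and the lower at 2 in replicate 1, and the higher at 23 and the lower at 2 in replicate 2. At 13 ends symbiotic animals were higher in both replicates, and no end was lower in both. Symbiotic lists were also longer as a whole, so the ratio of peaks is set beside the inner part. At the ends it was 1.76 in replicate 1 (302 symbiotic against 172 aposymbiotic peaks) and 1.23 in replicate 2 (796 against 647), each above the inner ratio of the same replicate. At sparse ends alone the ratio was 1.25 in replicate 1 (20 against 16 peaks) and 2.61 in replicate 2 (60 against 23). Sparse inner windows had ratios of 1.33 and 1.66.

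Regions held by both symbiotic lists and by no aposymbiotic list numbered 51 at the ends, or 4.62% (interval 3.46 to 6.03), against 3.12% of inner regions and 3.14% of all. In the opposite direction, 5 end regions were held by both aposymbiotic lists and by no symbiotic list, or 0.453% (interval 0.147 to 1.05), against 1.03% of inner regions and 1.02% of all. Symbiotic regions were thus 91.1% of the 56 end regions of 1 condition (interval 80.4 to 97.0) and 75.3% inside. With lists of equal length they were 6.90% of end and 4.11% of inner regions, and aposymbiotic regions 2.62% and 3.75%. The excess of symbiotic regions at ends, 1.5 percentage points, was 4.99 without symbiotic replicate 1, 5.10 without symbiotic replicate 2, 2.35 without aposymbiotic replicate 1 and 0.0365 without aposymbiotic replicate 2. Without 1 library fewer lists define such a region, so these points are not on the same base. End and inner shares were then 35.7% and 30.7%, 13.97% and 8.87%, 6.05% and 3.69%, and 13.66% and 13.62%, in the same order. With all 4 libraries the excess was 3.26 with ends of 100 kb, 0.848 with ends of 500 kb and 0.222 with ends of 1000 kb. The aposymbiotic deficit, -0.572 points, was -0.103 with ends of 500 kb and -0.0931 with ends of 1000 kb. It was -1.64 without symbiotic replicate 2, -3.23 without aposymbiotic replicate 1 and 0.561, reversed, without aposymbiotic replicate 2, again on other bases.

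Symbiotic regions lay at 16 of the 28 ends. The high end of scaffold 11 held 8 among its 135 regions, and the low end of scaffold 6 held 7 among 83. The low end of scaffold 8 held 6 among 90, and the high end of scaffold 14 held 6 among 124. Sparse ends held 5 symbiotic regions among 83, or 6.02% (interval 1.98 to 13.5), against 4.51% at populated ends. They held no aposymbiotic region (0 of 83, exact interval up to 4.35%, a range that holds the 1.02% of all union regions). Of the 5 aposymbiotic regions, 2 were at the high end of scaffold 5, among 73 regions. The high ends of scaffolds 3, 7 and 11 had 1 each, among 82, 56 and 135 regions.

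The 2 strongest symbiotic regions of all ends stood close together at the sparse high end of scaffold 1. The one at 41423632 to 41423786, 155 bp wide and 11.2 kb from the last peak end, had folds of 8.20 and 5.26 in symbiotic replicates 1 and 2, with 63 and 75 tags at the summit. Its neighbour at 41434312 to 41434401, 90 bp wide, lay 632 bp from the last peak end and had folds of 6.66 and 4.15, with 51 and 59 tags. Both ranked above the 95th percentile of fold in both symbiotic lists, and neither aposymbiotic list had a peak there. That end held 5 and 6 peaks in symbiotic replicates 1 and 2, and 3 and 1 peaks in aposymbiotic replicates 1 and 2.

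The other named symbiotic regions were weaker. In symbiotic replicates 1 and 2, one on scaffold 2 (211341 to 211437) reached folds of 3.84 and 3.94. Another on scaffold 3 (20664364 to 20664502), 13.96 kb from the last peak end, reached 3.84 and 3.04. The fifth, on scaffold 8 (17975645 to 17975940), reached 3.46 and 3.66. Over all 51 symbiotic end regions the median fold was 2.82 and 2.58 in symbiotic replicates 1 and 2, and over inner symbiotic regions 2.69 and 2.49.

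The 5 aposymbiotic end regions were weak in aposymbiotic replicate 1, with a median fold percentile of 10.6, and in the middle of the list of aposymbiotic replicate 2, with a median percentile of 54.1. The first by rank, on scaffold 11 (15868211 to 15868318), reached folds of 2.24 and 2.74 in aposymbiotic replicates 1 and 2, with 25 and 57 tags. One on scaffold 3 (20674242 to 20674354) lay 4.11 kb from the last peak end, with values of 2.21 and 2.32. The other 3 were on scaffold 7 at 18437035 to 18437160 and on scaffold 5 at 19820958 to 19821501 and 19872197 to 19872349. Across these 5 regions folds ran from 1.84 to 2.74. Their median fold in aposymbiotic replicates 1 and 2 was 2.21 and 2.26, against 2.5 and 2.29 for the 1191 inner aposymbiotic regions, whose median percentiles were 39.5 and 56.5. None of the 5 stayed an aposymbiotic region at a -log10 q of at least 5 (0 regions), and 1 did with lists of equal length, whereas of the 5 named symbiotic regions 5 and 4 did.

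Among regions called in all 4 libraries, the strongest at an end was on scaffold 8 at 17986721 to 17987352, 632 bp wide and 153 kb from the last peak end. Its folds were 7.83 and 9.41 in symbiotic replicates 1 and 2, from 66 and 135 tags, and 8.74 and 8.31 in aposymbiotic replicates 1 and 2, from 108 and 146 tags. It ranked above the 98th percentile in each list. The next, on scaffold 14 (9192937 to 9193251), reached 6.92 and 7.04 in symbiotic and 7.76 and 6.85 in aposymbiotic replicates 1 and 2. A region of scaffold 5 (19928089 to 19928574) reached 8.71 and 8.78 in symbiotic and 5.00 and 5.99 in aposymbiotic replicates 1 and 2. Folds of separate lists are not compared by a test.

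The other 7 of these 10 regions lay on scaffold 8 at 17944580 to 17944742 and 18019935 to 18020998, scaffold 10 at 17813439 to 17814023 and 229475 to 229943, scaffold 2 at 218247 to 218828 and 240231 to 240473, and scaffold 14 at 9139329 to 9139500. Over the 10 regions and 4 libraries, folds ranged from 4.19 to 9.41. All 10 lay at populated ends, which held 60 of the 62 end regions called in all 4 libraries. All 10 lay more than 100 kb from the end, the nearest at 105 kb, whereas 9 of the 62 lay within 100 kb. The 62 end regions called in all 4 libraries had a median width of 487 bp, against 410 bp for the 10114 inside. Their median fold was 3.58 and 3.70 in symbiotic replicates 1 and 2 and 2.91 and 2.94 in aposymbiotic replicates 1 and 2, against 3.48, 3.47, 2.98 and 3.01 inside.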

How the data were processed

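The submitters' processing notes name MACS3 3.0.4, Bowtie2 2.5.4, Trim Galore 0.6.10 and deepTools; no source used here gives settings or a genome build. Each library has 1 narrowPeak list as the authors deposited it, with a fold enrichment (a ratio), a -log10 p-value, a -log10 q-value (lowest 2) and a score made from the -log10 q-value. The deposited summit offset, another measure in bp, placed summit windows. Repeated lines of a peak were reduced to its strongest summit. Pileup and local background were solved from the fold, taken as pileup plus 1 over background plus 1, and the Poisson p-value, returning the listed value within 0.001 for 100% of peaks. Local background was raised when over 1% above the genome-wide value. The number of reads per library is unknown.

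A place without a peak has no value in a list. Groups came from the labels. Library values were compared by exact permutation tests; the labels call replicates biological but name no separate cultures, so p-values measure the spread between these libraries. Regions are not replicates and were not tested. Named regions are the 10 called in all 4 libraries with the highest lowest percentile of fold, and 5 per condition ranked likewise, the ends with the 3 highest and 3 lowest counts, the outermost regions and the longest empty stretch at an end. The members and these rules were chosen with earlier results of these data known. Alternatives were other end distances, lists shortened to 21481 peaks each, peaks with a -log10 q of 5 or more, summit windows of 200 bp, low ends counted from the first peak, and leaving out scaffold 8 or each library. Python 3.11.15, numpy 2.4.6, pandas 2.3.3, scipy 1.17.1 and matplotlib 3.10.9 were used, and the procedures were tested on simulated lists. Coordinates are counted from 1.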

Additional observations from a re-analysis of the deposited data

How the results depend on the processing

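The lower density at ends kept its direction under all alternatives, 1.44-fold (ends of 1000 kb) to 4.28-fold (ends of 100 kb), as did the higher symbiotic end share and the lower share of regions in all 4 libraries. That share, ends minus inner, was -5.50 points at 100 kb and -0.750 at 1000 kb. Ends below 25% of the inner density of union regions, a count added after seeing the data, numbered 10 at 500 kb, 6 at 1000 kb and 15 to 20 otherwise. The log2 fold ratio reversed to 0.0048 at equal list length and to 0.00013 without scaffold 8, and the width ratio to 0.0102 with ends of 1000 kb; the cause was not tested. Width under summit windows, which are all equally wide, was not run. Symbiotic regions, ends minus inner, moved to 3.26 points at 100 kb and 0.222 at 1000 kb, and ranged from 0.0365 to 5.10 without 1 library. Aposymbiotic regions moved to -0.103 points at 500 kb, -0.0931 at 1000 kb and -1.13 at equal length, and ranged from -3.23 to 0.561 without 1 library; fewer lists then define a region of 1 condition. With the replicate block the symbiotic minus aposymbiotic difference in log2 density stayed 0.22 (two-sided exact permutation of signs, p = 0.5, which 2 pairs cannot go below). Libraries with the same number deviated together, at a correlation of 0.588, over 1071 windows of 250 kb, which share list length and region density; with 2 pairs this does not show that the numbers pair the libraries.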
